A study of Homo sapiens with 9 samples.

Results

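Transcript levels 48 h after transfection of a miR-150-5p mimic were compared with those of cells given the lipid reagent alone, in ZR-75-1, an established estrogen receptor-positive breast cancer cell line. The comparison takes 6 of the 9 arrays of the study, the 3 mimic arrays and the 3 mock arrays. The mimic cells received 50 nM of a double-stranded RNA that stands in for the mature microRNA, in Lipofectamine RNAiMAX, and the mock cells received the same reagent with no RNA. The remaining 3 arrays, from cells given 50 nM of a negative control (NC) RNA, entered the fit for the spread, and their values are given beside the others. All cells grew in RPMI-1640 with 10% serum, and 1 array was hybridised per transfection. The mock cells carried no RNA, so this comparison alone cannot tell the sequence of the mimic apart from the delivery of an RNA.

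MicroRNAs are short RNAs that load into Argonaute proteins and pair, mainly through bases 2 to 8 (the seed), with sites in messenger RNAs, most often in their 3′ untranslated regions. TNRC6 proteins then recruit deadenylases, and the bound messenger RNA is destabilised or less translated. miR-150-5p is best known from lymphocytes, where it holds down the transcription factor MYB. In estrogen receptor-positive breast cells, ESR1 encodes the receptor that, when bound by estrogen, drives genes such as PGR.

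Among the genes that differed, 4 were microRNA genes. The labels do not state which RNA form their probesets detect, so whether the mature strands changed is not known. The mature sequences that these genes encode are shown for reference. Each is written 5′ to 3′ with its seed in capitals, from RefSeq on GRCh38.p14.
miR-23b-5p: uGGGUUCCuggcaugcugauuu
miR-23b-3p: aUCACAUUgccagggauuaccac
miR-27b-5p: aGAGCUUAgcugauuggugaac
miR-27b-3p: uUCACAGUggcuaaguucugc
miR-4298: cUGGGACAggaggaggaggcag
miR-548f-3p of MIR548F2: aAAAACUGuaauuacuuuu
The 4 arms of MIR23B and MIR27B lie on the plus strand at chr9:95085227-95085248, chr9:95085265-95085287, chr9:95085463-95085484 and chr9:95085505-95085525, in the order listed. miR-4298 lies at chr11:1859505-1859526 and miR-548f-3p at chr2:212426284-212426302, both on the minus strand. No pair of these 6 sequences shares a seed.

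Values are log2 intensities after the authors' RMA processing, and a difference of 1 is a doubling. A gene is said to have risen or fallen where limma's moderated test gave a Benjamini-Hochberg adjusted p under 0.05 over 14884 genes, and errors of differences are limma's standard errors (SE, n = 3 arrays per group). The median probeset of an array stood at 4.22 to 4.27. All 17 measured luminal identity genes lay above the median intensity of all genes (5.44). The same held for 2 of 8 basal and myoepithelial markers, 0 of 5 fibroblast, 1 of 6 leukocyte and 1 of 9 endothelial markers. Mock replicate 3 correlated with the other mock arrays (mean r = 0.9935) no better than with the arrays of other groups (0.9937), and the same held for mimic replicate 2 (0.9940 and 0.9941). Among the mimic arrays replicate 2 still correlated best with its own group (0.9927 and 0.9925 for replicates 1 and 3). Its array weight in limma, 1.84, was the largest of any array, against 0.54 and 0.53 for mimic replicates 1 and 3. The labels do not say whether the 3 transfections of a group were independent, so the p-values measure only the spread between these samples. In bulk RNA of this kind fewer cells that express a gene and less RNA per cell cannot be told apart.

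Between mimic and mock, 45 of 14884 genes passed, which is 0.302%: 25 rose (0.168%) and 20 fell (0.134%). The rises ran from 1.33-fold to 1.94-fold and the falls from 1.35-fold to 2.51-fold. The largest fall was that of the membrane protease gene ADAM19, and the largest rise that of the microRNA gene MIR548F2. In each of the 45 genes the 3 mimic arrays lay wholly above or wholly below the 3 mock arrays, as they did in 12.7% of all genes. The median difference over all genes was 0.01, the 5th and 95th percentiles were -0.26 and 0.26, and 53.9% of genes had a positive sign. Of the 20 genes that fell, all were protein-coding. Of the 25 that rose, 18 were protein-coding, 4 were microRNA genes, 2 long non-coding RNAs and 1 a pseudogene. Calls were more frequent among bright genes: 15 rises and 14 falls came from the 3721 brightest genes, and 1 rise and 0 falls from the 3721 dimmest.

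**Figure D1:**
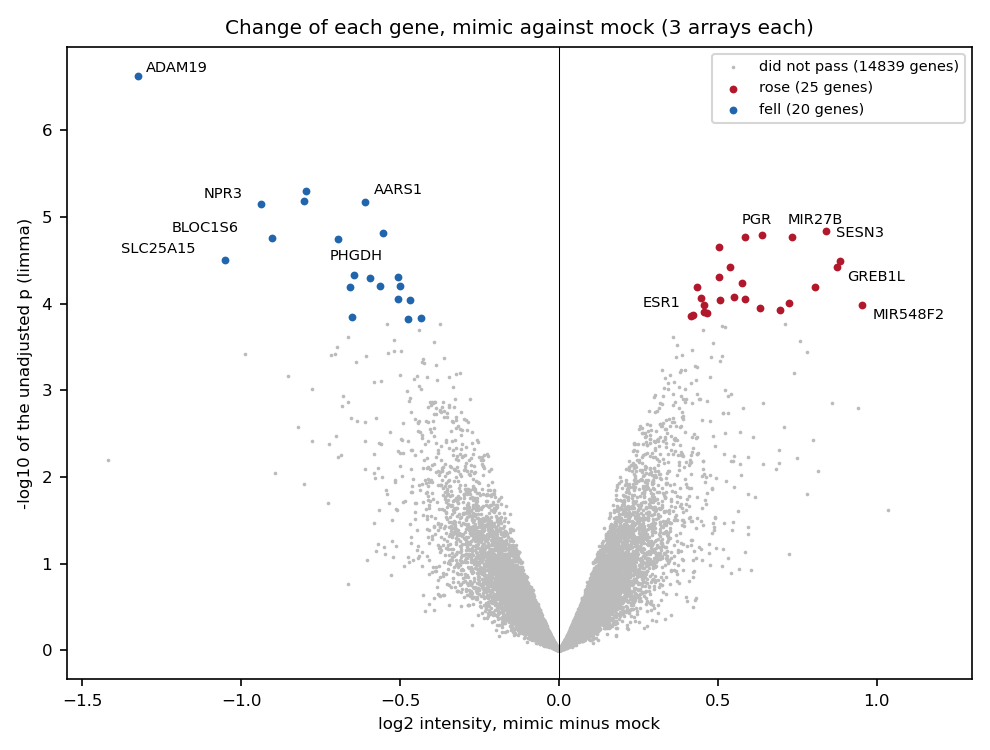
Each point is 1 of 14884 genes, with the log2 difference mimic minus mock (3 arrays each) on the x axis and the -log10 of the unadjusted p of limma's test on the y axis. Red points mark the 25 genes that rose and blue points the 20 that fell; ADAM19, at -1.33, stands apart at the top left.

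The count of genes depended on single arrays. It was 1, 1 and 4 without mimic replicate 1, 2 and 3, 2, 5 and 2 without mock replicate 1, 2 and 3, and 1, 10 and 1 without NC replicate 1, 2 and 3. Without mimic replicate 2 and mock replicate 3 together 0 genes passed in limma's test, with a lowest adjusted p = 0.135. ADAM19 passed in each of the 9 fits that left out 1 array, and every other of the 45 genes lost its call in at least 1 of them. A fit on the 6 mimic and mock arrays alone kept ADAM19 only, and a second quantile normalization gave 12 rises and 22 falls. All 45 genes kept their sign in every alternative that tested them. Their mimic and mock arrays did not overlap, so leaving out or weighting arrays could not have turned a sign.

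ADAM19 encodes a membrane-anchored metalloprotease that sheds growth factors such as neuregulin. Its log2 intensity was 6.77, 6.84 and 6.98 in mock, 7.11, 6.89 and 7.25 in NC and 5.45, 5.56 and 5.61 in mimic arrays. Every mimic array lay more than 1 log2 unit below every other array. The fall was 1.33 on the log2 scale (SE 0.10, 95% interval -1.56 to -1.09), or 2.51-fold, with an adjusted p = 0.00351 in limma's test. ADAM19 was the only one of 19 measured ADAM and ADAMTS metalloprotease genes to pass. The family's median difference was -0.03, with 8 positive and 11 negative. ADAM17, the main sheddase of TNF and EGF receptor ligands (0.29 ± 0.09, adjusted p = 0.273), and ADAM15 (-0.24 ± 0.07, adjusted p = 0.276) did not pass.

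SLC25A15, the carrier that takes ornithine into mitochondria for the urea cycle, measured 6.05, 5.86 and 6.12 in mock, 5.86, 6.13 and 6.30 in NC and 4.85, 5.23 and 4.80 in mimic arrays. The mimic arrays were all below the others, by -1.05 ± 0.14 against mock (adjusted p = 0.0321). It was the only gene to pass of 23 measured in arginine, ornithine and proline metabolism, whose median was -0.03. Only 4 of the 56 genes on the list of SLC25 carriers were measured: SLC25A15, SLC25A2, MTCH1 and MTCH2. Of these SLC25A15 alone passed, and their median was -0.23. MTCH2, a carrier-like protein of the outer mitochondrial membrane, was at -0.42 ± 0.16 (adjusted p = 0.407). ODC1, which makes putrescine from ornithine, was at -0.38 ± 0.21 (adjusted p = 0.566); mimic replicate 1 (5.38) lay below its other arrays, which were between 6.09 and 6.56. The other transporter gene that fell, SLC49A4, measured 8.14, 8.30 and 8.44 in mock, 8.46, 8.40 and 8.44 in NC and 7.40, 7.58 and 7.51 in mimic arrays. Its difference was -0.80 ± 0.09 (adjusted p = 0.0212), and its control arrays overlapped each other but not the mimic arrays.

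NPR3, the clearance receptor that removes natriuretic peptides, had values of 6.97, 6.86 and 7.25 in mock, 7.20, 7.03 and 7.12 in NC and 5.97, 6.16 and 6.14 in mimic arrays. It fell by 0.94 on the log2 scale (SE 0.11, adjusted p = 0.0212). In the opposite direction, EDN1, the precursor of the vasoconstrictor endothelin-1, stood at 7.74, 7.59 and 7.46 in mock, 7.81, 7.63 and 7.54 in NC and 8.52, 8.25 and 8.19 in mimic arrays. EDN1 rose by 0.72 ± 0.11 (adjusted p = 0.0429), and no control array reached the lowest mimic array. Of 32 measured vasoactive peptides and receptors these were the only genes to pass, and the median was -0.02. BDKRB2, the bradykinin B2 receptor, was at 0.57 ± 0.14 (adjusted p = 0.187). ADRA2A, the alpha-2A adrenergic receptor, rose by 0.54 ± 0.07 (adjusted p = 0.0331), from 7.64, 7.72 and 7.70 in mock to 8.22, 8.24 and 8.22 in mimic arrays.

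BLOC1S6, a subunit of the BLOC-1 complex that sorts cargo to lysosome-related organelles, measured 7.85, 7.45 and 7.79 in mock, 7.70, 7.69 and 7.68 in NC and 6.62, 6.87 and 6.89 in mimic arrays. It fell by 0.90 on the log2 scale (SE 0.11, adjusted p = 0.0224), alone among 14 measured genes of BLOC complexes and lysosome-related organelles. Their median was 0.02 and turned to -0.004 when the arrays were quantile-normalized again. KXD1, which belongs to the related BORC complex, was at -0.22 ± 0.06 (adjusted p = 0.231). CEP20, a centrosomal protein of cilium formation, measured 9.23, 9.14 and 9.41 in mock, 9.40, 9.38 and 9.46 in NC and 8.45, 8.58 and 8.33 in mimic arrays. It fell by 0.80 on the log2 scale (SE 0.09, adjusted p = 0.0212), and here too the mimic arrays did not overlap with either control.

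**Figure D2:**
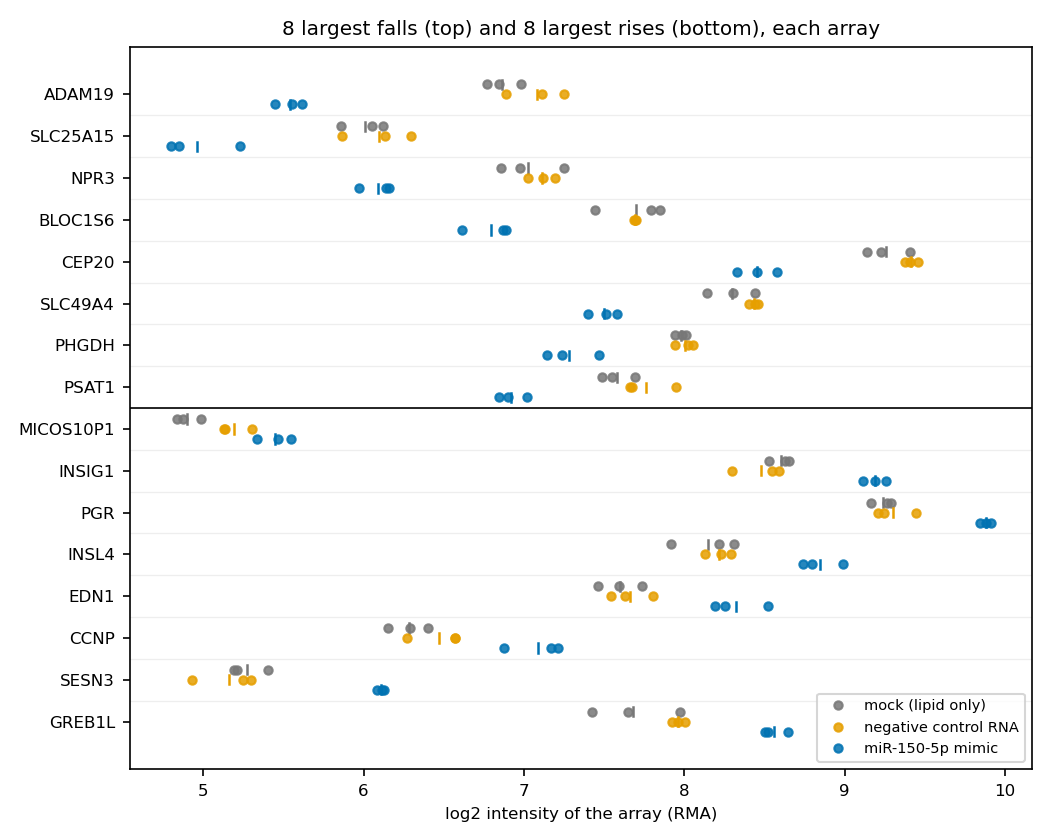
Log2 intensity (x axis) of the 8 genes with the largest falls (top) and the 8 with the largest rises (bottom) among the genes that met the naming rule, 1 point per array and a bar at each group's mean (n = 3). For each of the 16 genes the blue mimic points lie apart from the grey mock points; the orange NC mean lies nearer to mock than to mimic for all but MICOS10P1.

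Genes of serine synthesis and of the charging of transfer RNA with amino acids were among those that fell. PHGDH, the first enzyme of serine synthesis, was 7.94, 7.98 and 8.01 in mock, 8.02, 8.05 and 7.94 in NC and 7.24, 7.14 and 7.47 in mimic arrays. The fall was 0.70 on the log2 scale (SE 0.09, adjusted p = 0.0224). PSAT1, the next enzyme of the same route, was 7.49, 7.55 and 7.69 in mock, 7.68, 7.95 and 7.66 in NC and 6.85, 6.90 and 7.02 in mimic arrays, a fall of 0.66 on the log2 scale (SE 0.10, adjusted p = 0.0359). PSPH, which completes serine synthesis, did not pass (-0.39 ± 0.07, adjusted p = 0.0721), with 6.91, 6.96 and 6.86 in mock and 6.46, 6.58 and 6.50 in mimic arrays. GLDC, of the glycine cleavage system, did not pass either (-0.70 ± 0.13, adjusted p = 0.0845).

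Of 17 measured genes of serine synthesis and one-carbon metabolism 0 rose, 2 fell and 15 did not pass, with 5 positive, 12 negative and a median of -0.12. The list's mean lay below the mock mean by 0.32, 0.21 and 0.10 in mimic replicates 1, 2 and 3 in the plot of list means, so the size of the shift varied widely between the mimic arrays. AARS1, the alanyl-tRNA synthetase, was steadier: 10.84, 10.86 and 10.81 in mock, 10.86, 10.92 and 10.78 in NC and 10.18, 10.31 and 10.20 in mimic arrays. AARS1 fell by 0.61 on the log2 scale (SE 0.07, adjusted p = 0.0212), and was the only one of 17 measured aminoacyl-tRNA synthetases to pass. Of these, 13 had a negative and 4 a positive difference, and the median was -0.17, with array means of -0.29, -0.12 and -0.06 in the mimic replicates. The listed genes that encode only mitochondrial synthetases were not among those measured. YARS1 (-0.45 ± 0.09, adjusted p = 0.109) and IARS1 (-0.37 ± 0.09, adjusted p = 0.157) did not pass, nor did QARS1, which had the opposite sign (0.33 ± 0.08, adjusted p = 0.178).

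PHGDH and PSAT1 also belong to the 21 measured genes of the ATF4 amino acid response, the program by which cells answer a shortage of amino acids. No other member passed, 17 of the 21 had a negative difference, and the median was -0.16. Further members with a negative difference, PSPH and CTH among them, were on the serine and one-carbon list too. The medians of both lists therefore rest partly on the same genes. ATF4 itself was at -0.02 ± 0.07, with mock arrays from 8.06 to 8.21 and mimic arrays from 8.06 to 8.16. CTH, which makes cysteine, had 2.91, 3.90 and 4.19 in mimic against 4.31, 4.36 and 4.52 in mock arrays (-0.73 ± 0.26, adjusted p = 0.367). The members ASNS (-0.54 ± 0.18, adjusted p = 0.336) and PCK2 (-0.40 ± 0.14, adjusted p = 0.332) were on the same side. GDF15 (0.48 ± 0.13, adjusted p = 0.197) and STC2 (0.27 ± 0.09, adjusted p = 0.342), both secreted stress factors, were on the other.

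**Figure D3:**
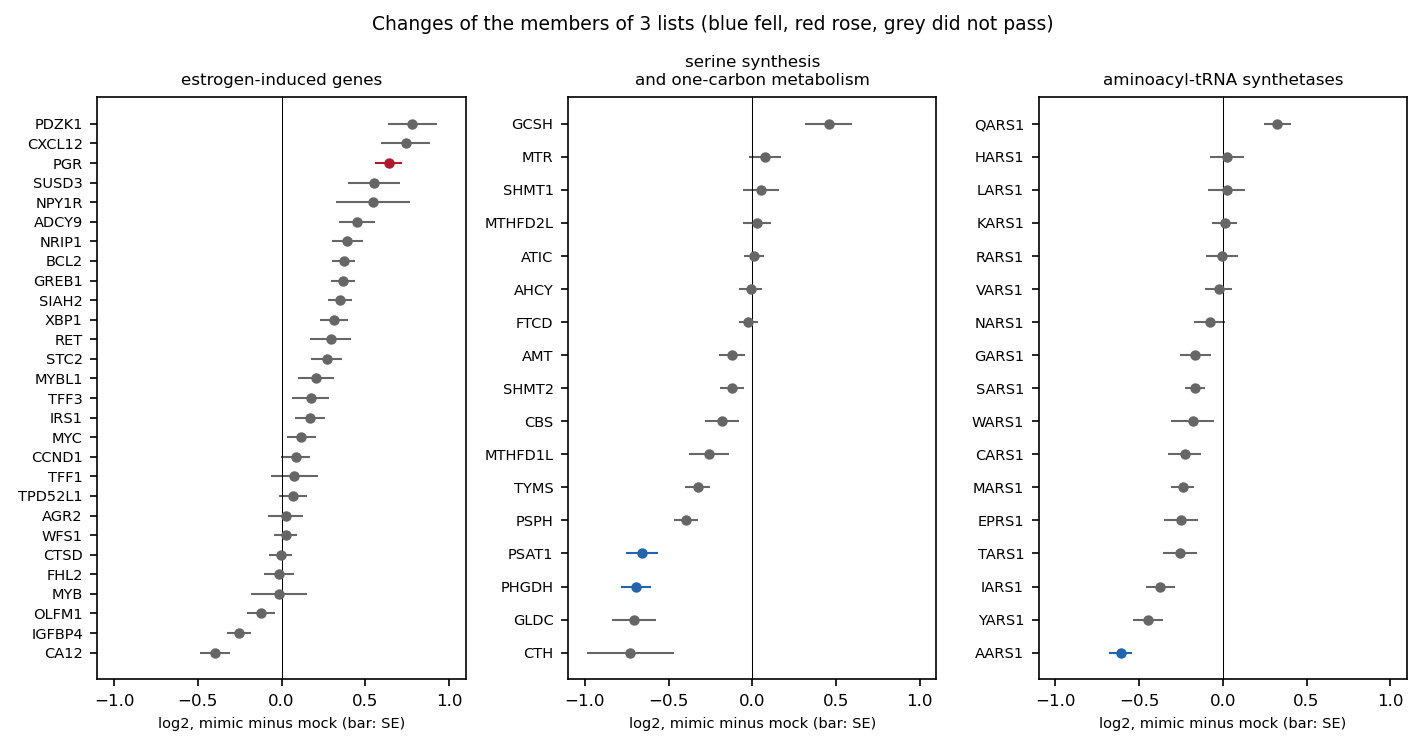
Log2 difference mimic minus mock (x axis, bar: SE of limma) of each measured gene of 3 lists, sorted by value. PGR is the only red point, PHGDH, PSAT1 and AARS1 are the only blue ones, and grey points did not pass; 22 of 28 estrogen-induced genes lie right of 0 and 13 of 17 synthetases left of it.

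A further 11 genes fell by less than PSAT1. CRISP3, a secreted cysteine-rich protein (-0.65 ± 0.11), ENPP1, an ectoenzyme that makes pyrophosphate (-0.65 ± 0.09), MMD (-0.60 ± 0.09) and TMTC1, a mannosyltransferase of the endoplasmic reticulum (-0.56 ± 0.08), fell most among them. DDOST, a subunit of the oligosaccharyltransferase (-0.56 ± 0.07), GSR, the glutathione reductase (-0.51 ± 0.08), the small GTPase gene RRAS (-0.51 ± 0.07) and LIMCH1, an activator of non-muscle myosin (-0.50 ± 0.07), fell too. So did DCAF6, a receptor of a ubiquitin ligase (-0.48 ± 0.08), ICMT, which methylates prenylated proteins such as RAS (-0.47 ± 0.07), and CAST, the inhibitor of calpain proteases (-0.44 ± 0.07). Their adjusted p ran up to 0.0498, that of DCAF6. For MMD the NC arrays (6.98, 6.94 and 7.01) lay above all 3 mock arrays (6.41, 6.48 and 6.67), while the mimic arrays (6.04, 5.88 and 5.86) lay below them. LIMCH1 had the same order, with mimic arrays from 5.59 to 5.64, mock arrays from 6.07 to 6.17 and NC arrays from 6.25 to 6.46.

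Among the genes that rose were the estrogen receptor and the progesterone receptor. ESR1 measured 8.52, 8.55 and 8.63 in mock, 8.50, 8.52 and 8.64 in NC and 9.04, 9.02 and 8.98 in mimic arrays. The rise of 0.45 ± 0.07 (adjusted p = 0.0407) was 1.36-fold, and the mimic arrays stood clear of both controls. PGR measured 9.29, 9.16 and 9.26 in mock, 9.24, 9.45 and 9.21 in NC and 9.84, 9.91 and 9.88 in mimic arrays, a rise of 0.64 ± 0.08 (adjusted p = 0.0224). ESR1 was the only riser among 17 measured luminal identity genes, of which 0 fell, 13 had a positive difference and the median was 0.12. CRABP2, a carrier of retinoic acid, had the most negative value of that list (-0.58 ± 0.14, adjusted p = 0.170) and the transcription factor ELF5 the most positive (0.78 ± 0.27, adjusted p = 0.337). For ELF5 mimic replicate 1 stood at 6.97 and the other mimic arrays at 5.82 and 5.95, against mock arrays from 5.14 to 5.70.

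Of 28 measured estrogen-induced genes PGR rose, 0 fell and 27 did not pass, with 22 positive, 6 negative and a median of 0.19. The median of the same genes in NC against mock was -0.03. The list's mean stood 0.28, 0.19 and 0.20 above the mock mean in the mimic arrays, while the single mock arrays were between -0.02 and 0.03. Members that did not pass included PDZK1, a scaffold protein (0.78 ± 0.15, adjusted p = 0.0838), the chemokine gene CXCL12 (0.74 ± 0.15, adjusted p = 0.108) and GREB1, a coactivator of the receptor (0.37 ± 0.07, adjusted p = 0.0845). For PDZK1 the NC arrays (7.04, 7.04 and 7.01) were closer to the mimic arrays (7.59, 7.53 and 7.25) than mock replicates 1 and 2 were (6.42 and 6.59; mock replicate 3, 7.02). SIAH2 (0.35 ± 0.07) and NRIP1 (0.39 ± 0.09) also had positive values that did not pass (adjusted p = 0.109 and 0.166), and the carbonic anhydrase gene CA12 had a negative one (-0.40 ± 0.09, adjusted p = 0.144). GREB1L, a paralog of GREB1, was the largest rise among the protein-coding genes. It measured 7.43, 7.65 and 7.97 in mock, 7.96 ± 0.04 (SD, n = 3) in NC and 8.65, 8.50 and 8.52 in mimic arrays, a rise of 0.87 ± 0.12 (adjusted p = 0.0331). Its mock arrays spread widely, and mock replicate 3 sat with the NC arrays.

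SESN3, a sestrin that restrains mTORC1 and is induced by FOXO factors, had the next largest protein-coding rise. It measured 5.41, 5.21 and 5.19 in mock, 5.25, 4.93 and 5.30 in NC and 6.08, 6.13 and 6.12 in mimic arrays. The mimic arrays were close together and 0.84 ± 0.10 above mock (1.79-fold, adjusted p = 0.0224). No other gene passed among 24 measured FOXO and insulin-signalling targets, of which 18 had a positive difference, with a median of 0.08. BCL6, a repressor on that list, was at 0.57 ± 0.17 (adjusted p = 0.252), with 8.76 in mimic replicate 1 and 8.12 or less in the other mimic arrays. In the insulin, relaxin and IGF family INSL4, an insulin-like peptide known from placenta, rose by 0.70 ± 0.11 (adjusted p = 0.0465). Its arrays gave 8.31, 8.22 and 7.92 in mock, 8.13, 8.23 and 8.29 in NC and 8.99, 8.80 and 8.74 in mimic. The family had 26 measured members with 19 positive, 7 negative and a median of 0.13. Its members KL, which encodes klotho (0.41 ± 0.09, adjusted p = 0.116), and IGF1R, the receptor of IGF1 (0.39 ± 0.09, adjusted p = 0.144), did not pass.

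INSIG1, which holds SREBP in the endoplasmic reticulum and so restrains sterol synthesis, measured 8.53, 8.63 and 8.66 in mock, 8.55, 8.30 and 8.59 in NC and 9.26, 9.12 and 9.19 in mimic arrays. It rose by 0.59 ± 0.09 (adjusted p = 0.0407), and the NC arrays overlapped mock. Of 17 measured cholesterol synthesis genes INSIG1 was the only one to pass, and 13 had a positive difference, with a median of 0.13. Its enzymes had smaller values: 0.24 ± 0.08 for MSMO1 (adjusted p = 0.296), 0.19 ± 0.08 for HMGCS1 (adjusted p = 0.440) and -0.31 ± 0.06 for PMVK (adjusted p = 0.108). The related INSIG2, on the list of fatty acid synthesis, was at 0.52 ± 0.12 (adjusted p = 0.158); 0 of that list's 16 genes passed, and its median was 0.03. CERS2, which makes very-long-chain ceramides, rose by 0.46 ± 0.07 (adjusted p = 0.0475). Its call was lost with the mean of its probesets and with its probeset of largest SD. Over all alternatives its difference ran from 0.40 to 0.52, and its adjusted p in limma's test reached 0.459.

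CCNP, a cyclin-like gene, rose by 0.81 ± 0.12 (adjusted p = 0.0359), with 6.40, 6.29 and 6.15 in mock, 6.27, 6.57 and 6.57 in NC and 6.88, 7.17 and 7.21 in mimic arrays. It was the only one to pass of 33 measured genes on the list of cyclins, CDKs and CDK inhibitors. That list also holds RB and E2F family genes, and its median of 0.03 turned to -0.01 under a second quantile normalization. Of 33 mitosis genes 0 passed, with a median of 0.05 that turned to -0.001 under that normalization, and of 22 DNA replication genes 0 passed, with 17 negative and a median of -0.10. The mean of the mitosis genes was -0.11 in mimic replicate 1 but 0.07 and 0.12 in the others. TYMS, the thymidylate synthase, had the lowest p of the DNA replication genes (-0.33 ± 0.07, adjusted p = 0.144), and ESPL1, the separase, that of the mitosis genes (0.20 ± 0.08, adjusted p = 0.444).

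The remaining protein-coding rises included signalling genes. GPC6, a cell-surface heparan sulfate proteoglycan (0.51 ± 0.08), DUSP16, a phosphatase of JNK and p38 kinases (0.50 ± 0.07), RALGPS2, an exchange factor for Ral GTPases (0.50 ± 0.07), and LRIG1, which lowers ERBB receptor levels (0.46 ± 0.07), all rose. RSPRY1 (0.46 ± 0.08), CREBZF, a bZIP transcription factor (0.42 ± 0.07), and CALCOCO1, a coactivator and autophagy receptor (0.41 ± 0.07), rose as well. Their adjusted p lay between 0.0252, that of RALGPS2, and 0.0494, that of CREBZF and CALCOCO1. In RALGPS2 the mimic arrays (9.45, 9.46 and 9.51) stood above mock (8.89 to 9.03) and NC (8.92, 8.96 and 8.92).

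TNRC6A, a scaffold of the silencing complex that microRNAs use, rose by 0.44 ± 0.06 (adjusted p = 0.0359), from 7.54, 7.62 and 7.66 in mock to 8.07, 8.03 and 8.03 in mimic arrays, with 7.72, 7.63 and 7.72 in NC. All 9 measured genes of the microRNA machinery had a positive difference, with a median of 0.09; the others did not pass, TNRC6C among them (0.33 ± 0.07, adjusted p = 0.143). The median of the same 9 genes in NC against mock was 0.08, and TNRC6A itself was at 0.08 there. Sensors of foreign RNA and interferon response genes gave no passing member. The 19 RNA sensing genes had a median of -0.002, with ZBP1 at the lowest p (-0.40 ± 0.09, adjusted p = 0.159). The 27 type I interferon response genes had 21 negative values and a median of -0.07, with USP18 at the lowest p (-0.45 ± 0.16, adjusted p = 0.366). Only 7 of the 27 lay above the median intensity of all genes. Their list mean differed from the mock mean by -0.11, -0.14 and 0.0003 in mimic replicates 1, 2 and 3, so replicate 3 showed no shift. For ZBP1 the NC arrays (4.27, 4.07 and 4.25) were as low as the mimic arrays (4.25, 4.18 and 3.97).

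Of 1072 microRNA genes on the array 4 rose and 0 fell, a share of 0.373%, against 0.319% of protein-coding genes that changed in either direction. The probesets read the labelled RNA of the gene's locus, and the RNA form they detect is not stated by the labels. MIR23B and MIR27B, the cluster mates on chromosome 9 shown above, were 0.58 ± 0.07 and 0.73 ± 0.09 higher in the mimic arrays (adjusted p = 0.0224 for both). MIR23B measured 6.75, 6.69 and 6.66 in mock, 6.92, 6.70 and 6.81 in NC and 7.28, 7.34 and 7.24 in mimic arrays. MIR27B measured 6.69, 6.51 and 6.71 in mock, 6.90 ± 0.10 (SD, n = 3) in NC and 7.49, 7.24 and 7.36 in mimic arrays, so its NC arrays lay between. AOPEP, the host gene of this cluster, was at 0.43 ± 0.11 (adjusted p = 0.200), and MIR27A, the paralog of MIR27B in another cluster, at 0.35 ± 0.14 (adjusted p = 0.421).

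MIR548F2 rose by 0.95 ± 0.15 (adjusted p = 0.0429), from 4.07, 4.25 and 4.44 in mock and 4.05, 4.49 and 4.39 in NC to 4.98, 5.22 and 5.43 in mimic arrays. It belongs to a large family of related copies, so its probeset may read more than 1 locus. MIR4298 rose by 0.89 ± 0.12 (adjusted p = 0.0321) at a low intensity, with 2.69, 3.20 and 3.02 in mock, 3.36, 3.36 and 3.31 in NC and 3.72, 3.94 and 3.92 in mimic arrays. Here NC lay above every mock array and below every mimic array. The probeset of MIR150 itself measured 4.39, 4.14 and 3.66 in mock and 4.47, 3.96 and 4.17 in mimic arrays, a difference of 0.14 ± 0.19 (adjusted p = 0.821). Whether it reads the mature strand is not given, so it does not check the delivery of the mimic. The other non-coding rises were the antisense RNAs PDCD4-AS1 (0.63 ± 0.10) and RAB11B-AS1 (0.58 ± 0.08) and the pseudogene MICOS10P1 (0.55 ± 0.08), with adjusted p = 0.0448, 0.0359 and 0.0407. MICOS10P1 measured 4.84, 4.87 and 4.98 in mock, 5.14, 5.13 and 5.31 in NC and 5.55, 5.46 and 5.34 in mimic arrays, and its signal cannot be told apart here from that of its parent gene. For RAB11B-AS1 the NC arrays, from 5.16 to 5.31, also lay between mock (4.79 to 5.00) and mimic (5.37 to 5.56).

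In NC against mock, a comparison that shares the mock arrays, 0 genes passed in limma's test, with a lowest adjusted p = 0.976 and 622 genes at an unadjusted p under 0.05, against 1594 for the mimic. Over the 25 genes that rose with the mimic the difference of NC from mock ran from -0.12 for INSIG1 to 0.38 for MIR4298, with RAB11B-AS1 at 0.35, MICOS10P1 at 0.29, GREB1L at 0.28, MIR27B at 0.26 and CALCOCO1 at 0.17. Over the 20 genes that fell it ran from -0.07 for CRISP3 to 0.46 for MMD, with ADAM19 at 0.22 and LIMCH1 at 0.26. For MICOS10P1, RAB11B-AS1, MIR4298, MIR27B and CALCOCO1 the arrays of both transfected RNAs were higher than every mock array. The part of RNA delivery in the rise of these genes was not tested. Several of the genes that rose did not pass against NC, a comparison that shares the mimic arrays. Among them were MICOS10P1 at 0.26 (adjusted p = 0.251), RAB11B-AS1 at 0.23 (0.308), MIR4298 at 0.51 (0.109), GREB1L at 0.60 (0.0671) and CALCOCO1 at 0.25 (0.172). The same held for LRIG1 at 0.31 (adjusted p = 0.103), for MIR27B at 0.47, CCNP at 0.61 and CERS2 at 0.38 (0.0594 each), and for TNRC6A at 0.35, CREBZF at 0.37 and RSPRY1 at 0.41 (0.0509 each). Among the genes that fell, CRISP3 did not pass against NC (-0.58, adjusted p = 0.0509).

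**Figure D4:**
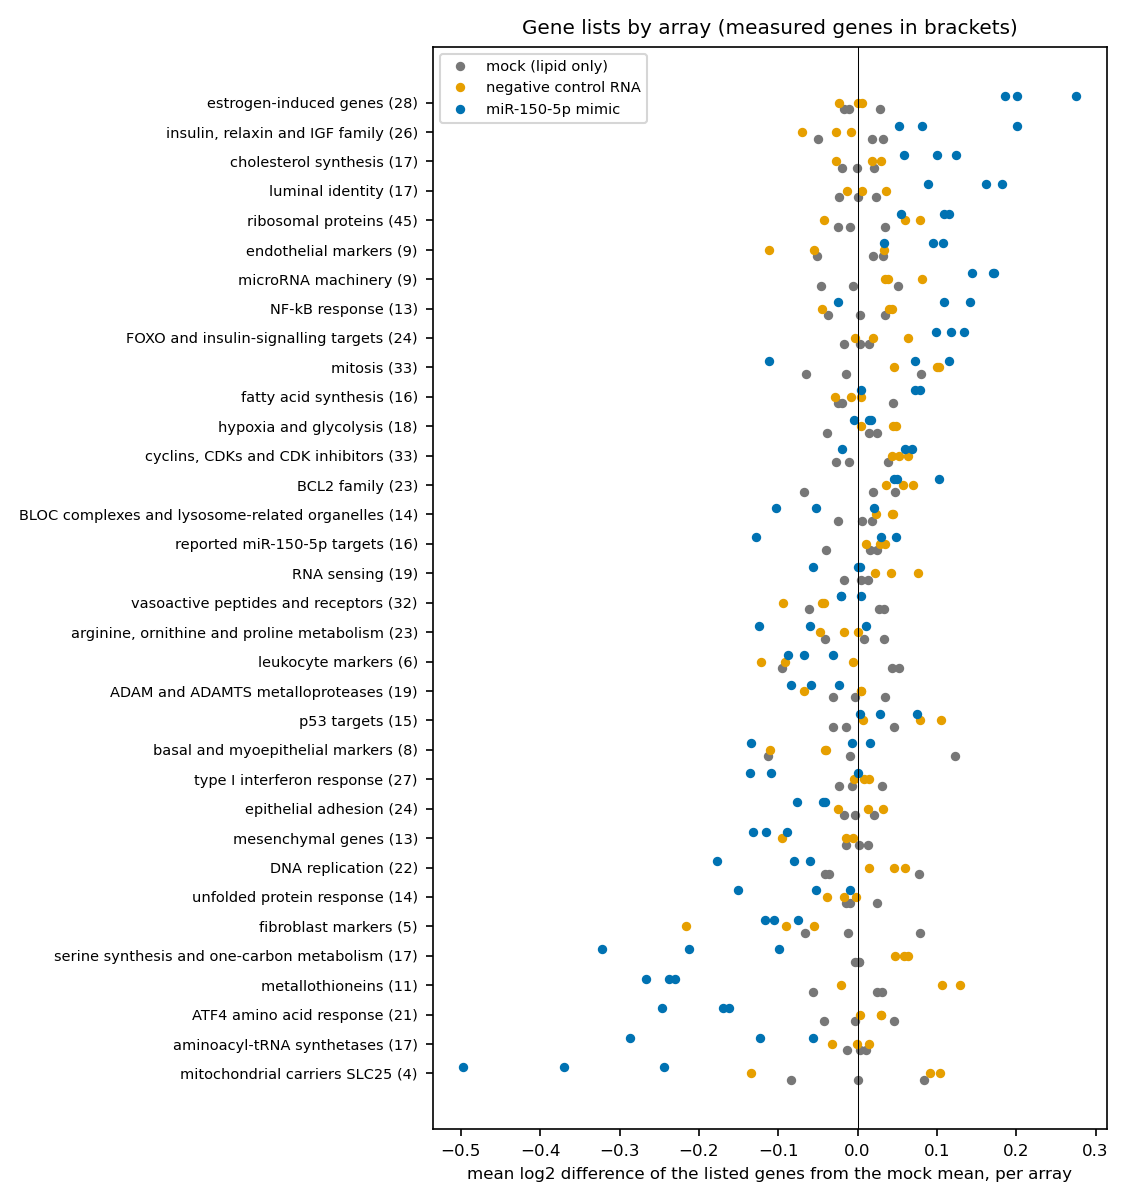
Mean log2 difference from the mock mean (x axis) of the measured genes of each list, 1 point per array, for mock (grey), negative control RNA (orange) and mimic (blue), sorted by the median difference of mimic from mock; brackets give the number of genes. The 3 mimic points of the estrogen-induced genes (0.19 to 0.28) lie right of all control points, and those of the aminoacyl-tRNA synthetases (-0.29 to -0.06) left of them.

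No reported target of miR-150-5p passed. Of 24 genes listed 16 were measured, with 8 positive and 8 negative differences from -0.19 to 0.13 and a median of -0.001. Only 10 of the 16 lay above the median intensity of all genes. The others were dim, such as ZEB1 with a mean of 2.87 over all arrays, so a fall of theirs could be missed. MYB, the best known target, measured 6.82, 6.51 and 6.98 in mock, 6.71, 7.09 and 6.86 in NC and 6.44, 6.83 and 7.01 in mimic arrays. Its groups overlapped, and the difference was -0.02 ± 0.17 with a 95% interval from -0.39 to 0.36. The error of MYB was larger than that of CAST, the smallest fall that passed (-0.44 ± 0.07). A fall of MYB within that interval could therefore be missed. The sign of MYB changed in 5 alternatives. AKT2, a kinase of insulin signalling, had the lowest p of the list (0.13 ± 0.08, adjusted p = 0.601). MicroRNAs also act on translation, which these arrays do not measure.

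Other groups had members with large differences that did not pass. Of 11 measured genes on the list of metallothioneins, small metal-binding proteins, 10 had a negative difference and 0 passed, with a median of -0.12. The list also names a transcription factor and a zinc transporter. MT2A measured 7.89, 7.75 and 8.32 in mock, 8.04, 8.54 and 8.34 in NC and 7.09, 7.38 and 7.17 in mimic arrays (-0.78 ± 0.17, adjusted p = 0.129). MT1F was at -0.61 ± 0.11 (adjusted p = 0.0845) and MT1X at -0.89 ± 0.27 (adjusted p = 0.269); these genes are near-identical copies, so each value is uncertain. Of 23 measured BCL2 family genes 0 passed, with BCL2, the apoptosis inhibitor, at 0.37 ± 0.07 (adjusted p = 0.0767). Its arrays did not overlap, with 9.58, 9.49 and 9.54 in mock and 9.98, 9.90 and 9.85 in mimic. The median of the family was 0.02 and turned to -0.002 under the second quantile normalization. The 45 ribosomal protein genes had 38 positive values and a median of 0.10, without a gene that passed. RPS9 had the lowest p (0.23 ± 0.08, adjusted p = 0.367). In NC against mock 30 of the 45 were positive, with a median of 0.04. The list's mean differed from the mock mean by 0.055, 0.109 and 0.115 in the mimic arrays. In the NC arrays it differed by -0.042, 0.079 and 0.060, so the groups overlapped. The 24 epithelial adhesion genes had a median of -0.07, with the desmosomal cadherin DSG2 at -0.64 ± 0.12 (adjusted p = 0.0905), 7.76 in mimic replicate 1 and 8.16 and 8.30 in the others. The 13 mesenchymal genes had 11 negative values and a median of -0.09, with the hyaluronan receptor CD44 at the lowest p (-0.33 ± 0.07, adjusted p = 0.127). Only 2 of the 13 lay above the median intensity of all genes.

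The lists of NF-kB response (13 genes, median 0.09), p53 targets (15, -0.04), unfolded protein response (14, -0.10) and hypoxia and glycolysis (18, 0.03) had no passing member. Their genes of lowest p were the chemokine gene CXCL3 (0.41 ± 0.12), GDF15, the histone demethylase gene KDM3A (0.26 ± 0.07) and XBP1, the transcription factor of the unfolded protein response (0.31 ± 0.08). Nor did the markers of other cell types, with medians of -0.05 for basal and myoepithelial, -0.12 for fibroblast, -0.03 for leukocyte and 0.09 for endothelial genes. Among these, TAGLN (0.24 ± 0.11), LUM (-0.32 ± 0.14), LYZ (0.15 ± 0.08) and PECAM1 (0.59 ± 0.17) had the lowest p of their lists; PECAM1 had a mean intensity of 2.84 over the 9 arrays, far below the median gene.

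The genes closest to the threshold without passing were GSTM1, a glutathione transferase (0.71 ± 0.12), USP13, a deubiquitinase (-0.54 ± 0.09), and the retrotransposon-derived gene PEG10 (-0.37 ± 0.06), all at an adjusted p = 0.0540. HOXC13 (0.51 ± 0.09) and GHDC (0.52 ± 0.09) followed at an adjusted p = 0.0548. The NC arrays of HOXC13 (6.19, 6.08 and 6.26) stood with its mimic arrays (6.21, 6.12 and 6.34) and apart from mock (5.83, 5.67 and 5.64). DPY19L1 (0.45 ± 0.08, adjusted p = 0.0583), ARHGEF38 (0.36 ± 0.06, adjusted p = 0.0675), PCTP (-0.52 ± 0.09, adjusted p = 0.0714) and VPS25, a subunit of ESCRT-II (-0.70 ± 0.13, adjusted p = 0.0792), came next by the naming rule. TET2, which oxidises methylated cytosine, was at 0.48 ± 0.09 (adjusted p = 0.0734). VPS25 measured 9.80, 9.77 and 9.58 in mock, 9.54, 9.93 and 9.92 in NC and 8.95, 8.90 and 9.21 in mimic arrays, a larger difference than those of most genes that fell, with a wider spread between arrays.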

How the data were processed

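RNA of ZR-75-1 cells was labelled with a FlashTag biotin kit and hybridised to Affymetrix Human Gene 2.0 ST arrays, per the labels' protocols. The deposited values are log2 intensities per probeset, which the authors made with RMA per the submitters' processing notes. No source used here gives the RMA version, probe annotation or build. RMA pulls arrays to 1 distribution, so a shift of all genes cannot be seen, and no detection call was used.

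Of 53617 probesets 16098 carried 1 gene symbol in the platform annotation, 0 several and 37519 none; all 16098 matched RefSeq GRCh38.p14 by identifier. In the 779 genes with more than 1 probeset, that of highest mean over all 9 arrays stood for the gene, which left 14884 genes. limma 3.58.1 in R 4.3.3 fitted a mean for each group to all 9 arrays by lmFit, with eBayes for the tests and 6 residual degrees of freedom, and was tested on simulated data. P-values are two-sided and Benjamini-Hochberg adjusted over all genes, and 0.05 is the threshold. With 3 arrays a group the smallest p of an exact permutation test is 0.1, and the number of arrays limits the precision.

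All genes that passed are named. Values of each array are given for the 8 largest rises and 8 largest falls with no overlap, a higher-group mean above 5.44 and no small RNA, antisense or uncharacterised name. The 5 and 5 of lowest p that missed the threshold, and the member of lowest p of lists with no passing member, are named too. PSPH, given with the serine genes, is 1 of these 5 falls. PDZK1, CXCL12, GREB1, SIAH2, NRIP1, CA12, GLDC, CTH, YARS1, IARS1, QARS1, ASNS, PCK2, GDF15, STC2, ATF4, MT2A, MT1X, ADAM17, ADAM15, TNRC6C, INSIG2, HMGCS1, MSMO1, PMVK, MIR27A, MIR150, AOPEP, BDKRB2, KL, IGF1R, CRABP2, ELF5, BCL6, ODC1, MTCH2, KXD1 and TET2, and per-array values of other genes, were chosen after values were seen. The genes, lists and tests were chosen with earlier results of these data known. Alternatives changed the arrays fitted, the replicate number as a block, normalization, filter, probeset rule, variance prior and array weights.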

Additional observations from a re-analysis of the deposited data

Results flagged for a closer look

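When each of the 53617 probesets was tested on its own, 2 probesets without a gene name here passed limma's test between mimic and mock, outside the named genes of the report. Probeset 16979917 was lower by -1.95 on the log2 scale (adjusted p = 0.00888), a larger difference than that of ADAM19. It measured 7.25, 7.001 and 7.27 in mock, 7.12, 7.17 and 7.003 in NC and 4.98, 5.44 and 5.26 in mimic arrays, so the mimic arrays lay apart from both controls. Probeset 16651207 was higher by 1.87 (adjusted p = 0.0171), with 1.98, 1.90 and 1.93 in mock, 3.80, 3.47 and 3.86 in NC and 3.54, 3.79 and 4.08 in mimic arrays. Here the arrays of both transfected RNAs stood together, and its intensity was low in all groups. At an unadjusted p under 0.05 stood 7.02% of unnamed and 8.68% of named probesets.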

How the results depend on the processing

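Against the 45 genes that passed between mimic and mock, the 6 arrays of these groups alone gave 1, all probesets tested singly 3, genes above the median intensity 102, and an intensity trend in the variance prior 78. Leaving out 1 array at a time gave between 1 and 10, and leaving out mimic replicate 2 and mock replicate 3 together, chosen after seeing the data, gave 0. Quantile normalization again gave 34, with 12 higher and 22 lower, so the split turned from mostly rises to mostly falls. For mimic against NC, with 82 genes, the same settings gave 8, 6, 263 and 181, array weights gave 268, single arrays left out between 7 and 121, and both left out together 10. NC against mock gave 0 in every alternative. A fit with a replicate block left 3 genes against mock (ADAM19, EDN1 and MIR548F2) and 16 against NC, and with the block as a random effect 49 and 122. Same-numbered mimic and mock arrays deviated together with correlations of 0.05, -0.06 and 0.10, so the numbers were not taken to pair the samples. ADAM19 passed in 21 of 22 alternatives and the other genes in 5 to 11. The sign of MYB turned with array weights (0.037), without mimic replicate 1, mock replicate 1 or mock replicate 3, and without mimic replicate 2 and mock replicate 3 (0.051); with single arrays left out it ran from -0.15 to 0.14. MIR150 turned with array weights (-0.087) and without mimic replicate 1 or mock replicate 3, with single arrays left out between -0.067 and 0.30. ATF4 turned without mock replicate 2, with a range from -0.049 to 0.032. The cause of these shifts was not tested. The search for seed matches of miR-150-5p was not run. Dim probesets could not be told apart from background.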
